A study of Homo sapiens with 6 samples.

Results

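Podocalyxin, its sialomucin relatives and the proteins that tie them to the cell cortex were followed in U87, an established cell line from a human glioblastoma. The set holds 8 of the 54628 genes in the files, taken by symbol: the CD34-family sialomucins PODXL, PODXL2 and CD34, the ERM genes EZR, MSN and RDX, and the scaffold genes NHERF1 and NHERF2, which the files list as SLC9A3R1 and SLC9A3R2. The set was chosen by the fold change of PODXL, which was strongly lowered in the comparison described here, and the other 7 genes joined it as relatives and binding partners. The values of that comparison are therefore given for all 8 genes as a description, with no p-value, and nothing is supported with them.

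All 6 libraries are poly-A RNA of U87 cells taken by flow sorting from a co-culture. Astrocytes appear in the series title, as part of a mitochondria shuttle, but the labels name no partner cell. Going by the titles, 3 libraries are of cycling cells to which mitochondria had passed (received) and 3 of cycling cells without them (not received). The labels give no genotype, treatment or time, and neither the species of the donor cells nor the marker used for sorting was given in the sources used here. Nothing says that the replicates came from separate cultures, and p-values then measure only the spread among these samples, which may be technical. U87 is a single line kept in culture, and RNA from whole sorted populations cannot tell fewer cells with a transcript from less transcript per cell.

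Podocalyxin is a heavily sialylated membrane mucin, best known from kidney podocytes, vascular endothelium and pluripotent stem cells, where its charged outer domain keeps membranes apart. PODXL2 (endoglycan) and CD34, the marker of blood progenitors and vessels, share its design of a mucin-like outer part, a membrane span and a short tail. The tail ends in a motif that the PDZ domains of the NHERF scaffolds bind. The NHERF scaffolds in turn bind ezrin, radixin and moesin, which hold membrane proteins with an N-terminal FERM domain and actin filaments with their C-terminal end. ERM proteins open for this when they meet phosphoinositides and when a conserved threonine near the C-terminus is phosphorylated. RNA counts do not measure that phosphorylation or the protein.

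The following coding ends show the part of the sialomucins that the scaffolds hold. Each is the last 27 coding bases before the stop codon, from the GENCODE release 29 transcript models, with the last 4 codons in capitals.
PODXL: ctggatgaggaggaaGACACACACCTC
PODXL2: gacgtgttcgaggagGACACGCACCTG
CD34: caacacgtggtggctGATACCGAATTG
In the capitals PODXL and PODXL2 differ at 2 of 12 bases and encode the same 4 residues. CD34 differs from PODXL at 6 of these 12 bases and from PODXL2 at 5, and 1 of its 4 residues is another one. Over the whole coding sequence the aligned bases were 62.2% identical between PODXL and PODXL2 and 66.2% identical between PODXL and CD34.

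The ERM genes are shown around the codon of the regulated threonine, in capitals, with 27 coding bases each.
EZR: aagtacaagACGctgcggcagatccgg
MSN: aaatacaagACCctgcgccagatccgg
RDX: aagtacaagACTctgcgacagattcga
The threonine is codon 567 of EZR, 558 of MSN and 564 of RDX. EZR and MSN differ at 3 of the 27 bases, EZR and RDX at 4, and MSN and RDX at 5, while all 9 codons encode the same residues in the 3 genes. Coding sequences were 74.9% identical between EZR and MSN, 70.5% between EZR and RDX and 71.7% between MSN and RDX. Only 4 of the 31-base words in the EZR and MSN coding transcripts were shared, and the other 6 pairs compared (EZR with RDX, MSN with RDX, the sialomucins with each other and NHERF1 with NHERF2) shared 0.

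Totals ran from 17879552 to 46392491 counts per library. Not-received replicate 2 was the deepest library and stood apart, at -44.43 on the first principal component against -13.83 and -14.76 for the rest of its group. At 3 counts a gene stands at 0.0661 CPM in the deepest and 0.167 CPM in the shallowest library, a floor that covers counting error only. CPM here are counts per 1000000, scaled with TMM factors, and fold changes are received over not received from edgeR's quasi-likelihood fit over the 14100 genes that passed a low-count filter. An adjusted p under 0.05 over all of these genes counts as a call. Libraries scaled by size alone gave fold changes with a median shift of 0.04 (log2).

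Of the 8 genes, 7 entered that fit and CD34 did not. Called lower were PODXL and EZR, called higher was PODXL2, and 4 were not called, beside 18.9% of all tested genes called in either direction (9.21% higher and 9.67% lower). Since this comparison chose PODXL, nothing is read from the count. In 5 of the 7 genes the ranges of both groups lay apart, as they did in 39.0% of tested genes. The genes without overlap were PODXL, PODXL2, EZR, RDX and NHERF1, and CD34, outside the fit, did not overlap either.

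**Figure D1:**
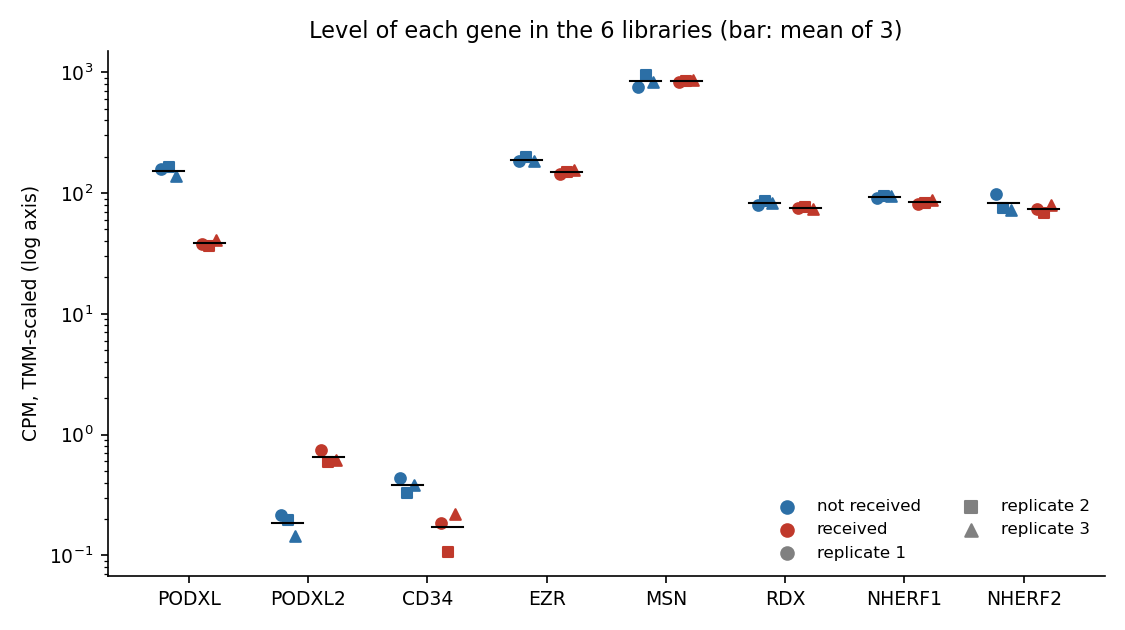
CPM (TMM-scaled, log axis) of the 8 genes in each of the 6 libraries, with not-received cells in blue, received cells in red, a symbol for each replicate number and a bar for the mean of 3. PODXL sits at 137 to 164 CPM in not-received and 36.5 to 41.0 CPM in received cells, while MSN overlaps near 850 CPM and PODXL2 and CD34 stay under 1 CPM.

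PODXL had 2892, 7451 and 2855 counts in not-received replicates 1, 2 and 3 and 818, 681 and 737 counts in the received ones. In CPM these were 157, 164 and 137 against 38.1, 36.5 and 41.0. The lowest not-received library thus stood far above the highest received one, and the spread inside each group was small beside the gap (153 ± 14.2 against 38.5 ± 2.25, SD, n = 3 each). The fitted log2 fold change was -1.99 ± 0.08 SE, with a 95% interval from -2.16 to -1.82, or 3.97-fold lower. It was -1.93 without not-received replicate 2. Among tested genes whose average log2 CPM reached 1, PODXL had the 94th lowest fold change of 11738.

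PODXL2, the gene of endoglycan, had 4, 9 and 3 counts in not-received replicates 1, 2 and 3 and 16, 11 and 11 in received ones. That is 0.217, 0.198 and 0.144 CPM against 0.744, 0.590 and 0.611 CPM, with all received libraries above all not-received libraries. The log2 fold change was 1.76 ± 0.43 SE (95% interval 0.83 to 2.70). The low-count filter asked for about 0.504 CPM in 3 libraries, which only the received libraries reached, so the gene was in the fit only because it was high there. It was not called by DESeq2 or without received replicate 1, and a filter of 1 CPM in 3 libraries removed it. CD34 had 8, 15 and 8 counts in not-received and 4, 2 and 4 in received replicates, or 0.435, 0.330 and 0.383 against 0.186, 0.107 and 0.222 CPM. Without the filter its log2 fold change was -1.11 ± 0.74 SE, with a 95% interval from -2.55 to 0.33. Both transcripts rested on few counts, at most 16 for PODXL2 and 15 for CD34 in a library. Beside the floor of 3 counts, PODXL2 had 3 to 9 in not-received and CD34 2 to 4 in received replicates. Neither relative reached 1 CPM in any library.

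Of the ERM genes EZR was called lower and MSN and RDX were not called. Ezrin is the ERM protein of epithelial microvilli and the one first found in a complex with podocalyxin. EZR stood at 183, 199 and 183 CPM in not-received replicates 1, 2 and 3 and at 144, 150 and 155 CPM in received ones, without overlap. The log2 fold change was -0.33 ± 0.06 SE (95% interval -0.46 to -0.20), or 1.26-fold lower, and -0.29 without not-received replicate 2. The difference was far smaller than that of PODXL, and no test of that contrast was made because the same comparison chose PODXL.

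MSN encodes moesin, the main ERM protein of leukocytes and many cultured cells, and had the most counts of the 8 genes, also per length of transcript. It stood at 759, 955 and 826 CPM in not-received and 837, 847 and 868 CPM in received replicates, and the groups overlapped. The mean was 847 ± 99.6 against 850 ± 16.1 CPM (SD, n = 3 each), the log2 fold change 0.01 ± 0.07 SE (95% interval -0.16 to 0.17). Its sign depended on single libraries: it was -0.07 without not-received replicate 1 and 0.10 without not-received replicate 2. RDX, the gene of radixin, stood at 79.5, 85.2 and 82.4 CPM in not-received and 74.8, 76.3 and 73.1 CPM in received replicates. The groups did not overlap, but the gap was narrow (log2 fold change -0.14 ± 0.06 SE, 95% interval -0.27 to -0.01). RDX was not called over all genes, and EZR and RDX were not tested against each other. The ERM transcripts summed to 1020 to 1240 CPM in not-received and 1060 to 1100 CPM in received libraries, which overlapped.

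**Figure D2:**
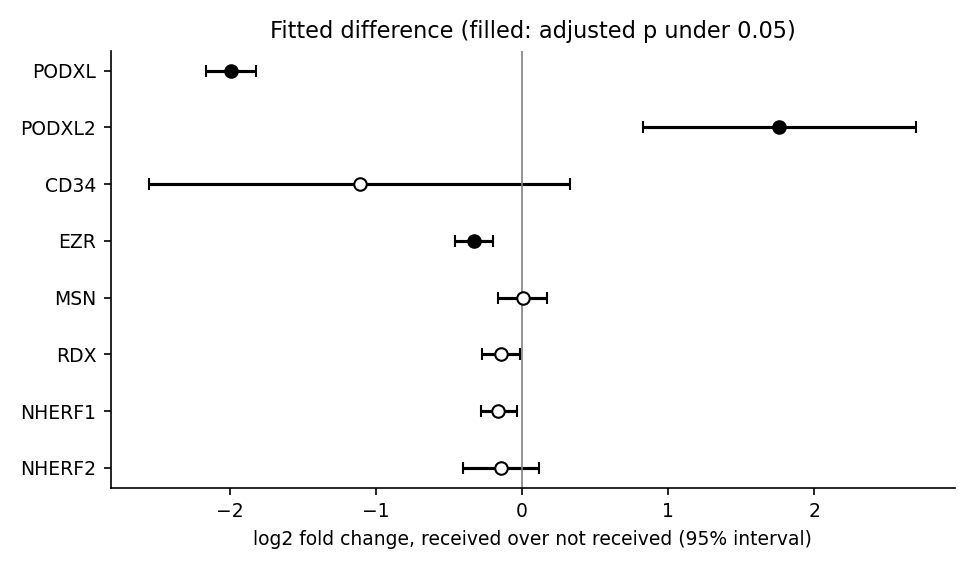
Fitted log2 fold change of each of the 8 genes, received over not received, with its 95% interval; filled points passed an adjusted p of 0.05, open points did not, and CD34 comes from the fit without a low-count filter. PODXL lies at -1.99, PODXL2 at 1.76 with a wide interval, EZR at -0.33, and the others within 0.16 of 0 except CD34.

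Neither scaffold gene was called. NHERF1, also called EBP50, is the scaffold found with ezrin in many epithelia. It stood at 91.6, 94.5 and 93.6 CPM in not-received and 81.1, 82.9 and 86.8 CPM in received replicates, all received values lying below all not-received values. Its log2 fold change was -0.16 ± 0.06 SE (95% interval -0.28 to -0.03) and was not a call over all genes. NHERF2, the scaffold that links podocalyxin to ezrin in podocytes, stood at 98.0, 75.2 and 72.4 CPM in not-received and 74.2, 68.7 and 80.0 CPM in received replicates. Its groups overlapped, and not-received replicate 1 was the single high library. The log2 fold change of NHERF2 was -0.14 ± 0.11 SE, and 0.01 without that library. Together the scaffolds summed to 166 to 190 CPM in not-received and 152 to 167 CPM in received libraries.

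Count ratios between genes of one library do not depend on how libraries are scaled. They are not per length, so they compare libraries and not the levels of different genes. For every 100 MSN counts there were 20.7, 17.2 and 16.6 PODXL counts in not-received replicates 1, 2 and 3 and 4.55, 4.31 and 4.72 in received ones. For every 100 EZR counts there were 85.9, 82.3 and 75.0 PODXL counts against 26.4, 24.3 and 26.5. PODXL counts were lower per EZR count as well as per MSN count in each of the 3 received libraries. These ratios reuse the counts that chose PODXL and are a description only. EZR itself went from 24.1, 20.9 and 22.1 to 17.2, 17.7 and 17.8 per 100 MSN counts. Of all ERM counts MSN took 75.7% ± 1.40 in not-received and 79.1% ± 0.173 in received libraries, EZR 16.9% ± 0.917 and 13.9% ± 0.208, and RDX 7.40% ± 0.473 and 6.96% ± 0.248 (SD, n = 3 each). The NHERF1 to NHERF2 ratio overlapped, at 0.934, 1.26 and 1.29 against 1.09, 1.21 and 1.09.

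**Figure D3:**
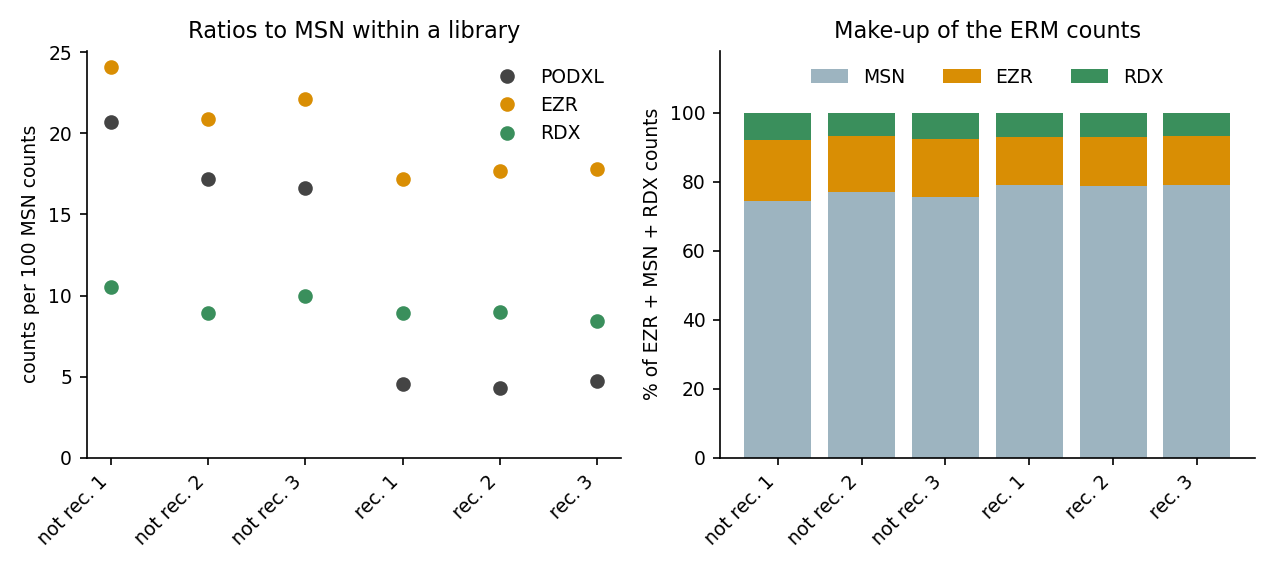
Left, counts of PODXL, EZR and RDX per 100 MSN counts in each library; right, the percentage of EZR, MSN and RDX in their summed counts. PODXL drops from 16.6 to 20.7 in not-received to 4.31 to 4.72 in received libraries and EZR from 20.9 to 24.1 to 17.2 to 17.8. MSN holds 74.3% to 77.1% of the ERM counts in not-received and 78.9% to 79.2% in received libraries.

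Levels of different genes can be set side by side only per length of transcript. Divided by the exon length of the GENCODE release 29 models (all coding and nonsense-mediated decay transcripts), the order in not-received cells was MSN at 203 ± 23.8 CPM per kb, EZR at 59.3 ± 3.03, NHERF1 at 47.1 ± 0.756, NHERF2 at 29.3 ± 5.03, PODXL at 24.2 ± 2.24 and RDX at 10.6 ± 0.364, with PODXL2 and CD34 under 0.1 (SD, n = 3). The ranges of NHERF2 and PODXL overlapped, and the other neighbours in this order down to PODXL2 did not. In received cells PODXL dropped to 6.10 ± 0.357 CPM per kb, below RDX at 9.64 ± 0.209, with no overlap, while MSN, EZR, NHERF1 and NHERF2 kept their order. The annotation behind the counts was not given in the sources used here, which makes these lengths approximate. With coding length alone PODXL came next after EZR in not-received cells, at 91.2 ± 8.46, overlapping NHERF1 and NHERF2, and again below RDX in received cells, at 23.0 ± 1.35 against 42.7 ± 0.925.

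Reads of near-identical copies and of antisense genes could blur these counts. The moesin pseudogene MSNP1 had at most 77 counts in a library, the antisense gene of EZR at most 2, that of NHERF1 at most 2, and the radixin pseudogenes RDXP1, RDXP2 and RDXP3 at most 2, 6 and 5. These are small beside the counts of the parent genes. The treatment of reads that fit several genes, and of strand, was not given in the sources used here.

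The genes whose level followed PODXL most closely over the 6 libraries were FGFBP1, a carrier of fibroblast growth factors, KRT14, a basal keratin, ATOH8, a basic helix-loop-helix factor, CGB5, a chorionic gonadotropin beta chain, and SMAD6, an inhibitory SMAD. The measure was the root-mean-square distance between log2 CPM values, each gene centred on its own mean, among 11178 tested genes whose average log2 CPM reached 1, pseudogenes and unnamed loci left out. It was 0.128 for FGFBP1, 0.141 for KRT14, 0.168 for ATOH8, 0.184 for CGB5 and 0.190 for SMAD6, against a median of 1.00 for all genes compared. This median mostly reflects the step of PODXL itself, since a gene unchanged between the groups lies about as far from it. KRT14 stood at 16.5, 16.2 and 15.4 CPM in not-received and at 4.88, 4.13 and 3.95 CPM in received replicates, with no overlap (log2 fold change -1.88 ± 0.12 SE). SMAD6 stood at 27.1, 25.3 and 20.1 CPM in not-received and at 7.91, 7.03 and 8.12 CPM in received replicates, again without overlap. FGFBP1 rested on few counts, 14, 12 and 16 in received replicates 1, 2 and 3 (log2 fold change -2.14 ± 0.25 SE). The log2 CPM of the distance had a prior count of 2, which shrinks differences most at such low counts. The place of FGFBP1 ahead of KRT14 depends on this setting. These 5 genes were picked for their likeness over the same libraries, so their fold changes are a description. Reads of CGB5 and KRT14 can match close paralogs, so their levels are uncertain.

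Of the 3 nearest tested genes on each side of PODXL on its chromosome, 0 of 6 were called. On one side MKLN1, the gene of muskelin, stood at 105 ± 1.86 CPM in received and 98.4 ± 6.70 CPM in not-received cells (log2 fold change 0.09 ± 0.06 SE, edgeR adjusted p = 0.330). On the other side PLXNA4, a plexin receptor, had a log2 fold change of -0.18 ± 0.17 SE (edgeR adjusted p = 0.495), and CHCHD3, a protein of the mitochondrial cristae complex, of -0.05 ± 0.06 SE (edgeR adjusted p = 0.547). The noncoding MKLN1-AS and LINC00513 and the pseudogene LOC729998 were not called either (edgeR adjusted p = 0.614, 0.376 and 0.360). LOC729998 stood at 18.9 CPM in not-received replicate 2 and at 5.95 to 6.76 CPM in the other 5 libraries.

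**Figure D4:**
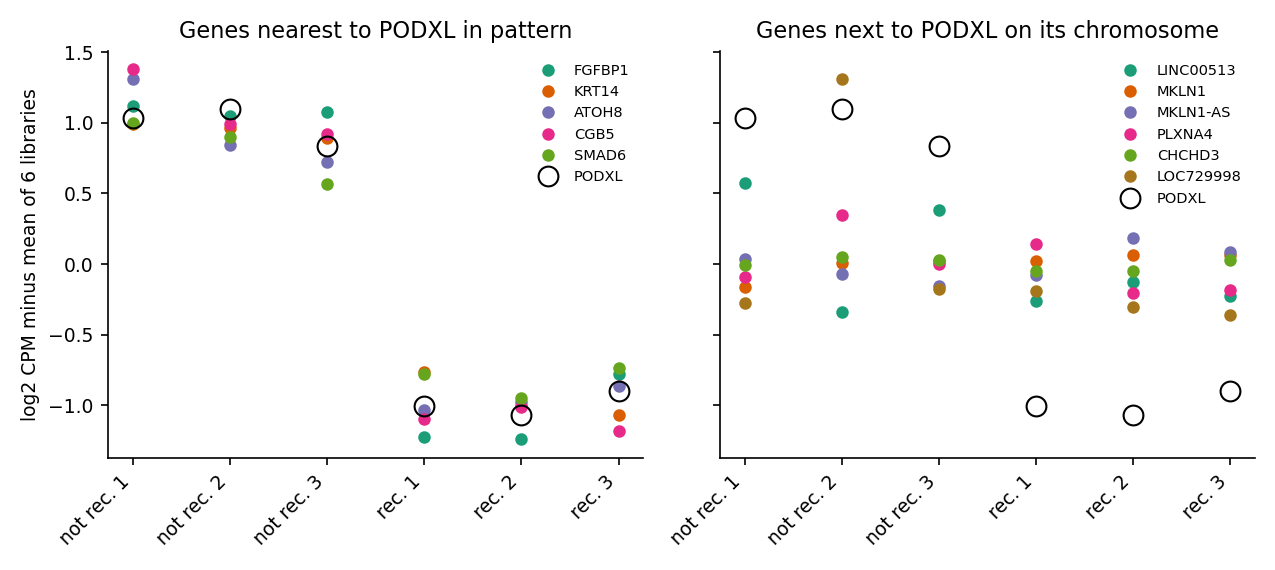
Log2 CPM minus its mean over the 6 libraries for PODXL (open circles) with the 5 genes nearest to it in pattern (left) and the 3 nearest tested genes on each side of it on its chromosome (right). The values are drawn without a prior count. The 5 genes on the left step down with PODXL in all received libraries, and those on the right scatter around 0 apart from LOC729998 in not-received replicate 2.

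Genes around the podocalyxin complex were read from 8 lists with 196 genes, of which 151 were tested. Of these 14 rose and 31 fell in received cells, with a median log2 fold change of -0.06, beside 9.21% and 9.67% of all tested genes and a median of 0.00. Without not-received replicate 2, 16 genes rose and 30 fell. Leaving out received replicate 1 gave 8 and 11, leaving out received replicate 2 or 3 gave 7 and 16, and 9 genes rose when not-received replicate 1 was left out.

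Membrane proteins that ERM proteins or NHERF scaffolds bind went both ways: of 22 tested, 3 rose and 6 fell, with a median log2 fold change of -0.13. L1CAM, a neural adhesion molecule whose tail binds ERM proteins, fell from 14.7 ± 0.772 to 9.19 ± 0.492 CPM (log2 fold change -0.68 ± 0.10 SE, edgeR adjusted p = 6.63e-04). The death receptor gene FAS rose from 22.3 ± 0.417 to 33.2 ± 1.52 CPM and the bicarbonate transporter gene SLC4A7 from 82.5 ± 10.7 to 117 ± 8.94 CPM (edgeR adjusted p = 1.72e-04 and 0.00357). CD44, a hyaluronan receptor whose tail binds ERM proteins, named after its value was seen, fell by 0.23 ± 0.05 (edgeR adjusted p = 0.0111, and up to 0.0714, not called, when any 1 received library was left out). The 6 that fell were 2, 3 and 3 without received replicate 1, 2 and 3.

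Of 18 regulators of the ERM proteins 1 rose and 4 fell, with a median of -0.10. PRKCA, the kinase PKC alpha, which can phosphorylate ERM proteins, fell by 0.51 ± 0.08 (176 ± 24.1 to 123 ± 3.38 CPM, edgeR adjusted p = 0.00171). PIP5K1C, which makes the phosphoinositide that opens ERM proteins, fell by 0.33 ± 0.07 (edgeR adjusted p = 0.00345), and the kinase gene CDC42BPA by 0.30 ± 0.08, a call (edgeR adjusted p = 0.0226) lost without not-received replicate 3 or received replicate 1 or 3, where the adjusted p reached 0.122. Other upstream genes, chosen after their values were seen, were not called: RHOA had a log2 fold change of -0.09, ROCK1 of 0.05, ROCK2 of -0.43, SLK of -0.19 and STK10 of -0.08 (edgeR adjusted p = 0.313, 0.686, 0.0769, 0.0724 and 0.452). The 4 that fell were 2 without received replicate 1 or 3, and the 1 that rose, the phosphatase gene PPP1CB, was not called with limma-voom, without any 1 received library or without not-received replicate 1 or 2 (adjusted p up to 0.14).

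Other FERM-domain proteins fell in 4 and rose in 1 of 25 cases, with a median of -0.12. FERMT3, the kindlin of blood cells, rose by 0.50 ± 0.07, PTPN21, a phosphatase, fell by 0.42 ± 0.08 and EPB41L4B by 0.36 ± 0.08 (edgeR adjusted p = 5.10e-04, 0.00204 and 0.0103). The call of EPB41L4B was lost without received replicate 1 or 3. The 4 that fell were 2 without any 1 received library, and 3 in place of 1 rose without not-received replicate 2. In the list of microvillus and actin-bundling genes 2 of 15 rose and 3 fell, with a median of -0.07. PROM1 among those that rose and BAIAP2L1 among those that fell reached 0.504 CPM only in the group where they were high. Like PODXL2, they were in the fit only through that group. MYO7B, a myosin of the brush border, fell from 7.99 ± 0.703 to 3.40 ± 0.681 CPM (edgeR adjusted p = 3.17e-04), BAIAP2 fell by 0.41 ± 0.09 (edgeR adjusted p = 0.0103, and up to 0.0713 when received replicate 1 or 2 was left out), and the actin bundler PLS3 rose by 0.28 ± 0.06 (edgeR adjusted p = 0.00335). The 3 that fell were 1 without received replicate 1 or 2, and 1 in place of 2 rose without any 1 library, with DESeq2, with either other filter and with the replicate block. The villin gene VIL1 was not tested, with 0.0179 CPM in received and 0 in not-received cells.

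Genes of apical traffic and polarity, the route by which podocalyxin reaches the free surface of epithelial cells, fell in 9 and rose in 1 of 31 cases, with a median of -0.06. STX3, an apical membrane syntaxin, fell from 41.1 ± 1.58 to 25.7 ± 1.82 CPM (log2 fold change -0.68 ± 0.08 SE, edgeR adjusted p = 7.59e-05). DNMBP, an exchange factor for CDC42 also called Tuba, fell by 0.35 ± 0.09 (edgeR adjusted p = 0.0138), a call lost when any 1 received library was left out, with adjusted p up to 0.0896. The polarity gene PARD6A rose from 3.28 ± 0.482 to 6.26 ± 0.640 CPM (edgeR adjusted p = 0.00268). RAB11B, RAB8A, RAB27A, RAB27B and RAB35, vesicle GTPases named after their values were seen, were among the genes that fell, by 0.18 to 0.28 on the log2 scale. Each of these 5 calls was lost without received replicate 1 and in at least 2 other fits that lacked 1 library (adjusted p up to 0.228). That of RAB8A was also lost with library size alone, no filter and the replicate block, and that of RAB35 with library size alone and limma-voom. The related RAB11A and RAB8B were not called, with log2 fold changes of 0.06 and 0.20 (edgeR adjusted p = 0.586 and 0.112). The count of 9 included RAB11FIP1, which reached 0.504 CPM only in the not-received libraries and was in the fit only through them. That count was 1, 3 and 4 without received replicate 1, 2 and 3 and 5 without not-received replicate 1. Without not-received replicate 3, 2 genes rose.

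Enzymes that build and sialylate mucin-type glycans, which make up much of the mass of podocalyxin, rose in 6 and fell in 2 of 29 cases, with a median of 0.02. GALNT10, which starts such glycans, fell by 0.41 ± 0.06 (90.6 ± 4.94 to 68.4 ± 2.44 CPM, edgeR adjusted p = 9.13e-04). GALNT7, of the same gene family, rose by 0.34 ± 0.07 and ST6GALNAC4 by 0.37 ± 0.07 (edgeR adjusted p = 0.00396 and 0.00202). These 2 genes were named after their values were seen and were not followed over the alternative fits. ST3GAL6, a sialyltransferase, fell by 0.55 ± 0.15 (edgeR adjusted p = 0.0204), a call lost without not-received replicate 3 or received replicate 1 or 3 (adjusted p up to 0.101). CHST4, a sulfotransferase of selectin ligands, rose by 0.61 ± 0.19 (edgeR adjusted p = 0.042), a call lost with DESeq2 and in 5 of 6 fits that lacked 1 library (adjusted p up to 0.196). The sialic acid synthesis genes GNE and CMAS, named after their values were seen, rose by 0.24 ± 0.07 each (edgeR adjusted p = 0.0273 and 0.0359). Both calls were lost without any 1 received library, and that of CMAS also without not-received replicate 2 (adjusted p up to 0.126 and 0.127). The 6 that rose were 2 without any 1 received library, and the 2 that fell were 1 without received replicate 1 or 3 or not-received replicate 3.

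Of 8 tested genes of other membrane mucins and selectins 3 fell and 0 rose, with a median of -0.17. CD24, a small sialylated mucin-type protein, stood at 87.2, 71.8 and 83.5 CPM in not-received and 45.6, 48.2 and 45.9 CPM in received replicates, and fell by 0.79 ± 0.08 (edgeR adjusted p = 2.22e-05). The mucin gene MUC1 fell from 7.60 ± 1.03 to 4.79 ± 0.532 CPM (edgeR adjusted p = 0.0102; 0.0613 without received replicate 2). SELPLG, the P-selectin ligand, fell from 2.47 ± 0.102 to 1.47 ± 0.0819 CPM (edgeR adjusted p = 0.0348), a call lost with DESeq2, without a low-count filter, with the replicate block and in 5 of 6 fits that lacked 1 library (adjusted p up to 0.123). The 3 that fell were 1 without received replicate 2. Of the factors linked to PODXL transcription, SP1 and SP3 were not called (edgeR adjusted p = 0.660 and 0.869), and WT1, which drives PODXL in podocytes, was at 0.0513 CPM in received and 0.109 CPM in not-received cells.

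**Figure D5:**
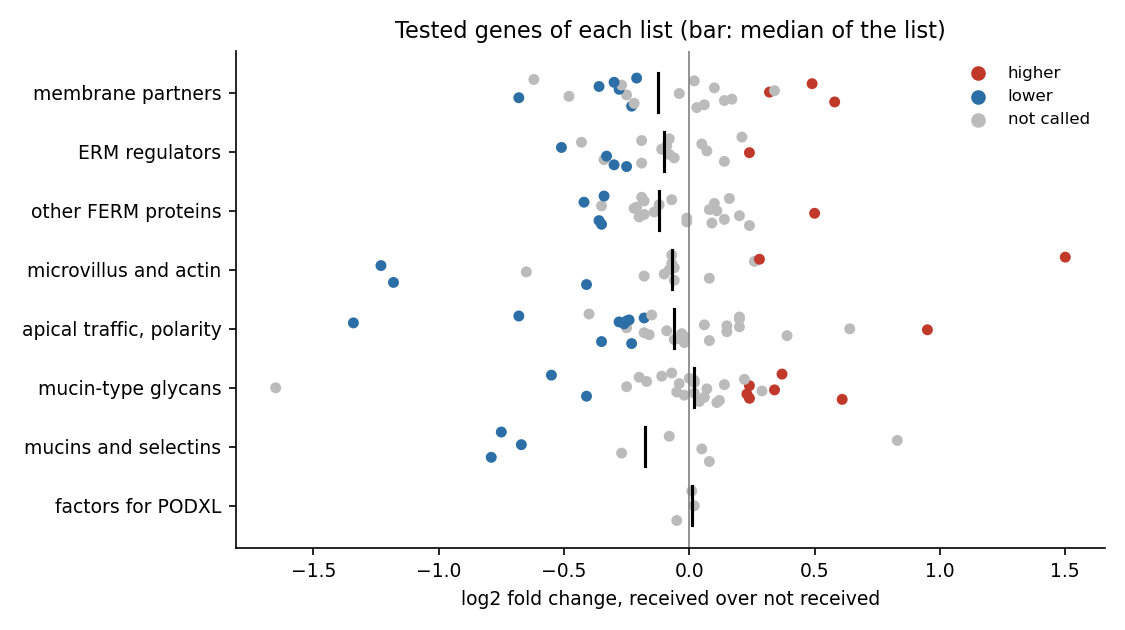
Log2 fold change, received over not received, of each tested gene in the 8 lists, coloured by call, with a bar at the median of each list. Medians run from -0.17 to 0.02, and in 6 lists more genes were called lower than higher, with glycan enzymes (6 higher, 2 lower) the other way.

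Markers of other cell types that carry podocalyxin or CD34, or that the co-culture could hold, were checked. CDKN2A and CDKN2B, which U87 cells have lost, had 0 counts in all libraries. VIM stood at 4680 ± 113 CPM in received and 3920 ± 333 CPM in not-received cells and NES at 44.5 ± 3.71 and 32.5 ± 2.76 CPM, and both rose (edgeR adjusted p = 0.017 and 0.00274), the call of VIM being lost without any 1 received library (adjusted p up to 0.0779). CHI3L1 fell from 39.9 ± 4.21 to 21.4 ± 1.98 CPM (edgeR adjusted p = 3.75e-05), and CD44 fell as given above. The list of 7 U87 markers, with 2 genes higher and 2 lower, summed to 5490 to 5700 CPM in received and 4650 to 5350 CPM in not-received libraries, mostly VIM. Of the endothelial and blood-cell list PECAM1 stood at 1.31 ± 0.411 CPM in received and 1.05 ± 0.263 CPM in not-received cells and CDH5 at 0 and 0.0501 CPM, and the list of 12 summed to 34.7 to 36.2 and 27.5 to 36.4 CPM, mostly KDR and TEK. Of the podocyte list of 10, FOXC2 fell from 31.9 ± 1.69 to 17.9 ± 1.56 CPM and PLCE1 from 52.9 ± 4.22 to 42.5 ± 0.741 CPM, while SYNPO rose from 63.5 ± 8.20 to 89.0 ± 14.4 CPM (edgeR adjusted p = 2.88e-05, 0.0102 and 0.0456). The call of PLCE1 was lost without received replicate 2 or 3 (adjusted p up to 0.0633), and that of SYNPO with the replicate block and without received replicate 1 or 2 or not-received replicate 1 or 3 (adjusted p up to 0.11). LMX1B had 0 counts, NPHS1 stood at 0 CPM in received and 0.0617 CPM in not-received cells, and the list summed to 371 to 409 CPM in received and 329 to 397 CPM in not-received libraries. The stem cell genes LIN28A and TDGF1 had 0 counts. POU5F1 stood at 0.087 CPM in received and 0.0647 CPM in not-received cells, and NANOG at 0.0549 and 0.032 CPM. That list of 8 summed to 26.7 to 27.6 and 25.8 to 31.1 CPM, nearly all from DNMT3B and LIN28B. Neither was called (edgeR adjusted p = 0.232 and 0.0511), though LIN28B did not overlap, at 5.96 ± 0.888 and 4.09 ± 0.533 CPM. Of 10 astrocyte markers AQP4, ALDH1L1 and GJB6 had 0 counts and GFAP stood at 0.328 ± 0.115 and 0.390 ± 0.179 CPM. The list summed to 71.2 to 82.5 CPM in received and 84.4 to 93.9 CPM in not-received libraries, nearly all from ALDOC and SLC1A3. Microglial CX3CR1, P2RY12, AIF1 and C1QA had 0 counts, while that list of 8 summed to 498 to 513 CPM in received and 377 to 417 CPM in not-received libraries, mostly CD68, which rose from 374 ± 21.9 to 481 ± 8.48 CPM (edgeR adjusted p = 8.83e-04). Whether any of these markers or sums has a part in the level of PODXL was not tested.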

How the data were processed

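Each library has 1 deposited file of whole-number read counts by gene symbol, without normalization. Per the labels' protocols, mRNA was captured on poly-T beads and sequenced as paired-end reads. Per the submitters' processing notes DESeq and R 3.6.1 were used. Aligner, counter, genome build, annotation and strand setting were not given in the sources used here, and coordinates are left out for that reason. RefSeq (GRCh38.p14) served for aliases and gene order and GENCODE release 29 for sequences and lengths. NHERF4 was found as PDZD3.

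Counts were filtered with filterByExpr (minimum count 10), scaled by TMM and tested in edgeR 4.0.16 (R 4.3.3) with robust glmQLFit and glmQLFTest, with the group as the single term and Benjamini-Hochberg adjustment over all 14100 genes tested. SEs were obtained as the size of the log2 fold change divided by the square root of F. The steps were tested on simulated data. Genes, lists and tests were chosen with earlier results of these data known. From each list up to 3 called genes are named, those of largest change whose average log2 CPM reached 1 (where none was called, the 1 with the smallest p), with the 5 genes nearest to PODXL (log2 CPM, prior count 2) and the 3 nearest tested genes on each side. Alternatives were other scaling factors, DESeq2 1.42.0, limma-voom (limma 3.58.1), other filters, the replicate number as a block and leaving out each library. Results for some listed genes are not reported here.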

Additional observations from a re-analysis of the deposited data

How the results depend on the processing

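Over 13 alternatives PODXL and EZR were called lower each time, with log2 fold changes of -2.06 to -1.93 and -0.35 to -0.29. These fits reuse the libraries that chose PODXL, so they describe its value and support nothing. The 1 of the 8 genes called higher, PODXL2, was 0 with DESeq2, 0 with a filter of at least 1 CPM in 3 samples and 0 to 1 with 1 library left out. Over all genes, leaving out 1 library gave 604 to 1356 higher and 691 to 1579 lower genes against 1298 and 1364, and 7 to 16 and 11 to 30 in the lists around podocalyxin against 14 and 31. With no low-count filter 2084 genes were lower. Scaling by library size alone gave 1683 higher and 1110 lower genes, 60.3% higher against 48.8%. In the lists, scaling by library size alone, limma-voom, no filter and the replicate block gave 3, 2, 2 and 2 higher genes of apical traffic against 1. In the microvillus list DESeq2, no filter, the filter of 1 CPM and the replicate block each gave 1 higher gene against 2, and limma-voom gave 0 higher ERM regulators against 1. Deviations of same-numbered libraries correlated at -0.200, -0.068 and 0.054, and those of other pairs at -0.188 to 0.254. With 3 libraries in a group, these values cannot tell whether same-numbered samples share a culture or batch. With the replicate block 1252 genes were higher and 1384 lower, and PODXL (-1.99), PODXL2 (1.74) and EZR (-0.33) were called. Of the 8 genes, depth limits PODXL2 and CD34, with at most 16 counts in a library.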
